A study of Rattus norvegicus with 40 samples.

Results

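The transcripts described here were abundant in rat fat and far lower in liver, soleus muscle and hippocampus. A transcript was a member when its TPM (a level scaled for transcript length and library size) averaged at least 10 over the 10 fat samples and was at least 20 times the mean of each other tissue, with 0.1 added to every mean. Of 31715 transcripts in the tables, 134 met this rule, fewer than the 200 that were allowed, so all were kept. Levels in all 4 tissues thus chose the members, and their height in fat is a description of the choice. The genotype of the rats was not part of the rule.

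White fat stores triglyceride in large lipid droplets and releases it as fatty acids between meals. Adipocytes carry an expression programme that most other cells lack, with droplet coat proteins, lipid synthesis and breakdown enzymes and secreted hormones, kept up by adipogenic transcription factors. A fat pad also holds stromal precursors, vessels, mesothelium and immune cells, each with its own restricted transcripts. In whole tissue, fewer cells of a type and less RNA per cell cannot be told apart.

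RNA had been sequenced from 40 samples of SHR/OlaIpcv rats, a spontaneously hypertensive inbred strain, with 5 wild-type and 5 Tti2+/- samples in each tissue. They came from 12 rats, 6 of each genotype, each giving at most 1 sample of a tissue. Tti2 encodes a subunit of a chaperone complex that stabilises the kinases of the mTOR and ATM family. The Tti2+/- rats were whole-body heterozygotes of 1 zinc-finger nuclease line with a small deletion in the first exon, so an effect in fat cannot be told apart from an effect of Tti2 elsewhere, and the wild-type rats were littermates. The labels give no age, and they call the depot peritoneal where the methods call it perirenal. The tables pair no transcript with a gene, so the members are given by Ensembl transcript, their roles are not stated, and neither the fat label nor a cell type was checked against marker genes.

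The total estimated count of a fat sample lay between 24018315 and 26822062 in wild-type rats and between 22416531 and 25981663 in Tti2+/- rats, and wild-type fat was the more deeply sequenced (two-sided exact permutation p = 0.0476, where 5 against 5 allow none below 0.0079). Since no gene name was at hand, the targeted gene could not be read. The transcript ENSRNOT00000032467.4, chosen with its values known, lay at 8.73 to 11.1 TPM in wild-type fat and at 5.94 to 7.48 TPM in Tti2+/- fat, and every Tti2+/- sample was below every wild-type sample in the other 3 tissues too. Because it was chosen for that pattern, it is no independent check of the genotypes.

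The members together made up 9.37% of all TPM in fat, with a summed mean of 93747 TPM. The sum was 1471 TPM in muscle, 1083 TPM in hippocampus and 377 TPM in liver. A few transcripts carried most of the fat sum. The most abundant member held 21.5% of it, the first 3 held 37.6% and the first 10 held 64.7%. In fat, 21 members averaged 1000 TPM or more, 41 lay from 100 to 1000 TPM and 72 lay below 100 TPM, with a median of 84.5 TPM.

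The median member was 43.7 times as high in fat as in its next highest tissue, and 44 members were at least 100 times as high. The next tissue was muscle for 76 members, hippocampus for 35 and liver for 23. Median levels outside fat were 0.773 TPM in muscle, 0.405 TPM in hippocampus and 0.232 TPM in liver. The widest gap, 1964-fold, belonged to ENSRNOT00000002492.5, the fifth most abundant member. For 132 of the 134 members the lowest fat sample lay above the highest sample of any other tissue. The remaining pair had samples listed at 0 in fat.

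**Figure D1:**
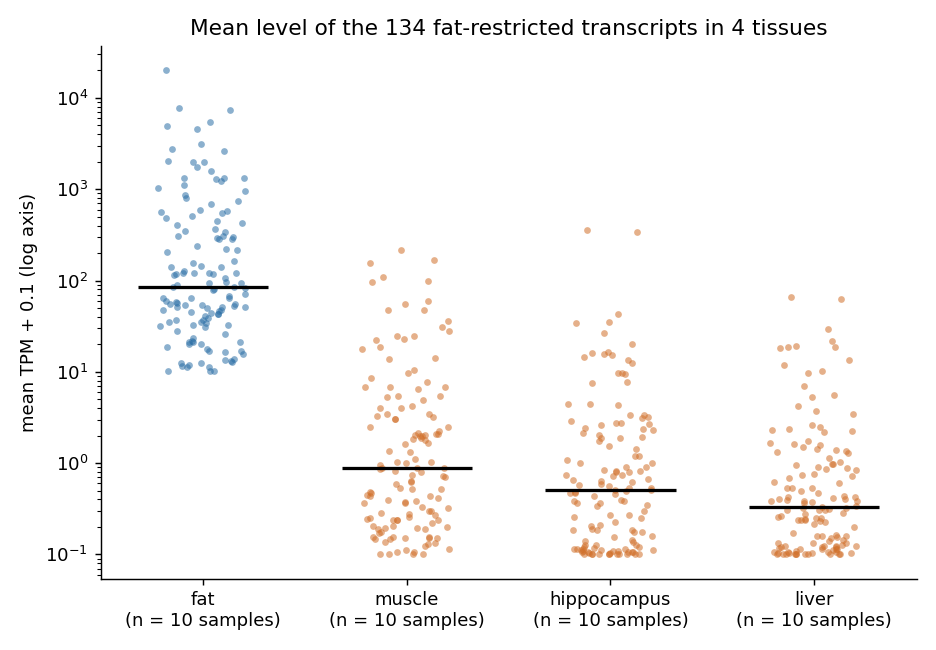
Mean TPM of each of the 134 members in fat, muscle, hippocampus and liver (points, 10 samples per tissue, 0.1 added, log axis), with the median of the members as a bar. The median in fat was 84.5 TPM, and the medians in the other tissues were below 1 TPM before the addition.

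At the edges of the rule the choice was fine. The last member by level, ENSRNOT00000080604.1, averaged 10.09 TPM in fat, and ENSRNOT00000075353.1 missed the limit at 9.98 TPM. By fold, ENSRNOT00000072490.3 came in at 20.1-fold and ENSRNOT00000009606.6 stayed out at 19.8-fold. The members had a median length of 1855 bases, against 1897 bases for all transcripts that averaged at least 10 TPM in fat. Only 3 members were shorter than 200 bases, and TPM overstates how many reads stand behind such transcripts. The third most abundant member by TPM, ENSRNOT00000055447.2, is 135 bases long and took the 101st place among the members by estimated count, with a mean of 855 counts.

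The summed level of the members did not separate the genotypes in fat. In the wild-type fat of rats 1 to 5 the members summed to 87639, 86043, 100493, 94853 and 94520 TPM. In the Tti2+/- fat of rats 1 to 5 the sums were 95527, 90599, 99154, 92079 and 96566 TPM. All Tti2+/- sums fell within the range of the wild-type sums. The means were 92710 ± 5887 TPM (SD, n = 5) in wild-type rats and 94785 ± 3452 TPM (SD, n = 5) in Tti2+/- rats, a difference of 2.24% against a spread between rats of 5.20%. On CPM (counts scaled for library size and not for length) the direction was the opposite, with 97601 ± 7105 CPM (SD, n = 5) in wild-type and 93424 ± 4463 CPM (SD, n = 5) in Tti2+/- fat. The CPM sums cover the 132 members with enough counts in fat, and the TPM sums all 134. Single members weighed heavily in both sums. ENSRNOT00000018447.5 averaged 7860 CPM in wild-type and 4399 CPM in Tti2+/- fat, and it was lower by TPM as well, at 2244 and 1274 TPM. Higher in Tti2+/- fat were ENSRNOT00000055447.2, at 6607 and 8089 TPM, and ENSRNOT00000077311.1, at 865 and 1801 TPM. Other members went either way, and these were picked after their values were seen.

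Single members were compared between the genotypes by edgeR's quasi-likelihood test, fitted on all 20221 transcripts with enough counts in fat. A call needed a Benjamini-Hochberg adjusted p under 0.1 and a change of at least 1.5-fold. In fat, 132 members were tested and 0 were called, where the share called over all transcripts was 0%. The smallest adjusted p of a member was 0.684 by the edgeR test. DESeq2 likewise called 0 members, and 0.0989% of all transcripts. The edgeR fit also left ENSRNOT00000032467.4 uncalled in fat, at a log2 fold change of -0.66 (SE 0.09, edgeR adjusted p = 0.338). For this transcript the DESeq2 adjusted p was 4.9e-07. A count of 0 by edgeR therefore does not show that the members were unchanged. At an unadjusted p under 0.05 there were 2 members, both with lower estimates in Tti2+/- fat, where 6.96% of all transcripts reached that p in either direction and 3.15% with a lower estimate. By CPM no member had groups that did not overlap, which held for 1.32% of all transcripts. Labels name the samples as separate rats, and the p-values measure the spread between those rats.

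Most estimates were small as well as uncalled. The median log2 fold change of the 132 members, Tti2+/- over wild type, was -0.02, beside -0.003 over all tested transcripts, with 57 members above 0 and 75 below, where 51% of all transcripts were below 0. The 95% interval lay wholly within 1.5-fold for 90 members, or 68.2%, against 61.9% of all tested transcripts. That comparison is not at like level, since every member averaged at least 10 TPM and most tested transcripts did not. For the 8825 tested transcripts that averaged at least 10 TPM, this share was not computed. Their median SD of log2 CPM between rats was 0.115, against 0.265 for the members. For the 10 most abundant members the log2 fold change ran from -0.06 to 0.26, and 9 of them had an interval within 1.5-fold. For the 21 members that averaged at least 1000 TPM it ran from -0.84 to 1.00, and 17 had such an interval. Of all 132 tested members, 42 had intervals that reach past 1.5-fold, so a change of that size is not excluded for them.

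**Figure D2:**
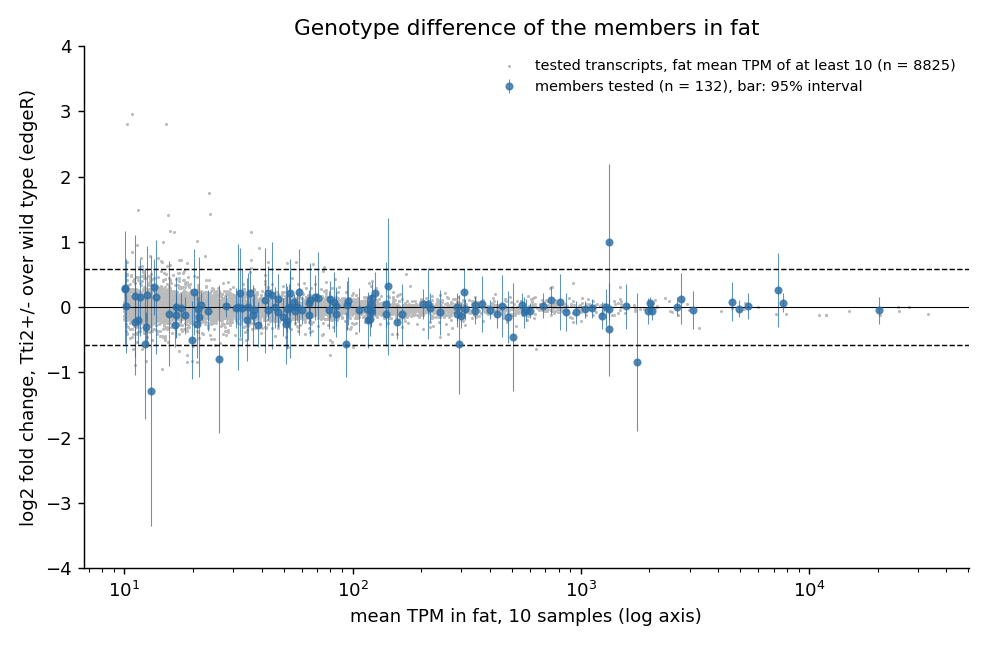
The log2 fold change of Tti2+/- over wild-type fat for the 132 tested members (blue, bars are 95% intervals) and for 8825 tested transcripts with a fat mean of at least 10 TPM (grey), against the mean TPM on a log axis. Dashed lines mark 1.5-fold. Only 4 members have an estimate past them, and each of those intervals crosses 0.

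The most abundant member, ENSRNOT00000014701.7, stood at 19079, 19302, 21950, 21164 and 19981 TPM in wild-type rats 1 to 5. In Tti2+/- rats 1 to 5 it stood at 22018, 16788, 22664, 19059 and 19730 TPM. The groups overlapped, and the highest and the lowest value were both in Tti2+/- rats. Its log2 fold change was -0.05 (SE 0.09, edgeR adjusted p = 0.941). For the second member, ENSRNOT00000022846.5, the log2 fold change was 0.07 (SE 0.07, edgeR adjusted p = 0.885). For the third, ENSRNOT00000055447.2, it was 0.26 (SE 0.26, edgeR adjusted p = 0.883).

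The 2 members with the smallest p among lower estimates were ENSRNOT00000011213.5 and ENSRNOT00000015767.7. ENSRNOT00000011213.5 stood at 11.6, 14.1, 16.7, 13.3 and 12.6 TPM in wild-type rats 1 to 5 and at 11.8, 11.3, 11.4, 11 and 10.5 TPM in Tti2+/- rats 1 to 5. The groups overlapped by wild-type rat 1 alone, and the log2 fold change was -0.31 (SE 0.10, edgeR adjusted p = 0.684). ENSRNOT00000015767.7 averaged 111 ± 32.8 TPM (SD, n = 5) in wild-type fat and 75.9 ± 17.4 TPM (SD, n = 5) in Tti2+/- fat, a log2 fold change of -0.57 (SE 0.23, edgeR adjusted p = 0.691). The latter also had lower estimates outside fat, at -0.59 in muscle (edgeR adjusted p = 0.611) and -0.80 in liver (edgeR adjusted p = 0.522). In hippocampus its estimate was -0.24 (edgeR adjusted p = 0.939). The tissues came largely from the same rats, so they are not independent repeats. None of these estimates passed the test.

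Among higher estimates the smallest p belonged to ENSRNOT00000080604.1 and ENSRNOT00000077311.1. The former averaged 9.07 ± 1.30 TPM (SD, n = 5) in wild-type and 11.1 ± 1.54 TPM (SD, n = 5) in Tti2+/- fat, a log2 fold change of 0.27 (SE 0.12, edgeR adjusted p = 0.725). For ENSRNOT00000077311.1 the wild-type values were 825, 930, 802, 869 and 902 TPM in rats 1 to 5. The Tti2+/- values were 780, 5541, 1140, 742 and 803 TPM. Tti2+/- rat 2 stood far above the other 9 samples. The log2 fold change was 1.00 (SE 0.54, edgeR adjusted p = 0.764) with it and -0.02 without it.

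The members had a larger median spread from rat to rat than the class of transcripts with a fat mean of at least 10 TPM. The standard deviation (SD) of log2 CPM between rats of a genotype had a median of 0.265 over the 132 tested members and ran from 0.064 to 1.46. The 8825 tested transcripts of that class had a median of 0.115. An SD of at least 0.5 was found for 30 members, or 22.7%, and for 2.76% of that class. Over all 20221 tested transcripts, most of them of lower level, the share was 21.7% and the median SD 0.210. The spread was wider among the less abundant members, with a median of 0.315 below 100 TPM, 0.180 from 100 to 1000 TPM and 0.155 at 1000 TPM or more. For all 104 tested transcripts that averaged at least 1000 TPM the median was 0.0964. These are descriptions without a test, since a mean level over 10 rats can let in a transcript that 1 rat made high. With members chosen on median TPM instead, the median SD was 0.255.

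**Figure D3:**
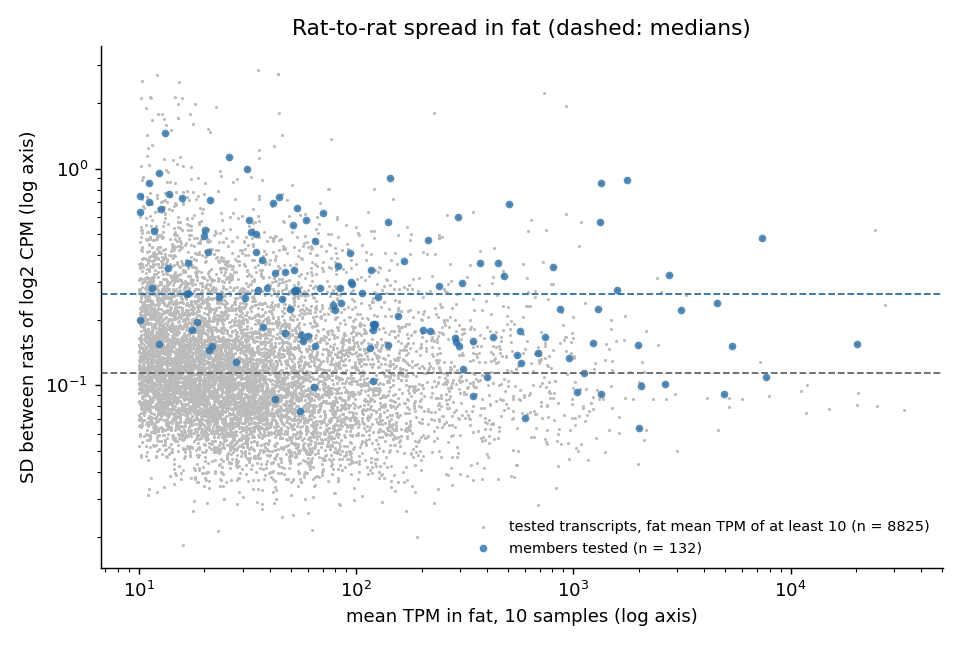
Standard deviation of log2 CPM between rats of the same genotype against mean TPM in fat, both on log axes, for the 132 tested members (blue) and for tested transcripts with a fat mean of at least 10 TPM (grey). Dashed lines are the medians, 0.265 for the members and 0.115 for the class.

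Between the highest and the lowest fat sample the median member differed 1.79-fold. The ratio was above 2 for 49 members, above 5 for 12 and above 10 for 3. The steadiest member, ENSRNOT00000023664.6, stood at 1843, 1947, 2022, 1884 and 2042 TPM in wild-type rats 1 to 5 and at 2099, 2101, 2001, 2042 and 2097 TPM in Tti2+/- rats 1 to 5. Its highest sample was 1.14 times its lowest. The most variable by SD, ENSRNOT00000011402.4, stood at 3.36, 3.83, 74.6, 4.31 and 6.63 TPM in wild-type and at 4.37, 5.44, 5.49, 4.88 and 18.5 TPM in Tti2+/- rats. Both genotypes had 1 high animal there, wild-type rat 3 and Tti2+/- rat 5, and the log2 fold change of -1.29 (SE 0.93, edgeR adjusted p = 0.820) became 0.76 without wild-type rat 3.

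Wild-type rat 3 held the most extreme fat sample. It was the highest of the 10 for 45 members, 34.1% against 26.1% of the class with at least 10 TPM. It was the lowest for 33 members, 25% against 16.1% of the class. In this rat 20 members were at least 2-fold below the median of the other 9 samples and 6 were at least 2-fold above it. For ENSRNOT00000020606.4, chosen after its values were seen, wild-type rat 3 had 4.29 TPM and the other 9 samples had 25.1 to 45.6 TPM. Leaving this rat out, the median SD was 0.209 for the members and 0.106 for the class.

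The members that were low in wild-type rat 3 tended to be low in Tti2+/- rat 5 as well. Of the 33 members at their lowest in wild-type rat 3, Tti2+/- rat 5 was the next lowest for 21 and lay below the median of the 10 samples for 30, with a median log2 difference of -0.42. Of the 45 at their highest in wild-type rat 3, Tti2+/- rat 5 was the next highest for 16. These counts were not computed for the class, so they cannot show whether the likeness of the samples is particular to the members. Tti2+/- rat 2 and wild-type rat 1 stood on the other side, at a median of 0.24 and 0.22 above the centre for the 33. A principal component analysis was run after each genotype's mean was removed and each transcript was scaled by its SD. Its first component took 47.2% of the members' variance, against 31.1% for the class. It ran from wild-type rat 1 at one end to wild-type rat 3 at the other. Removing the means sets samples of a genotype against each other, so opposite ends within a genotype are partly built in. Tti2+/- rats 2 and 5 came next to these ends. Which cells of the pad these members come from was not tested.

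**Figure D4:**
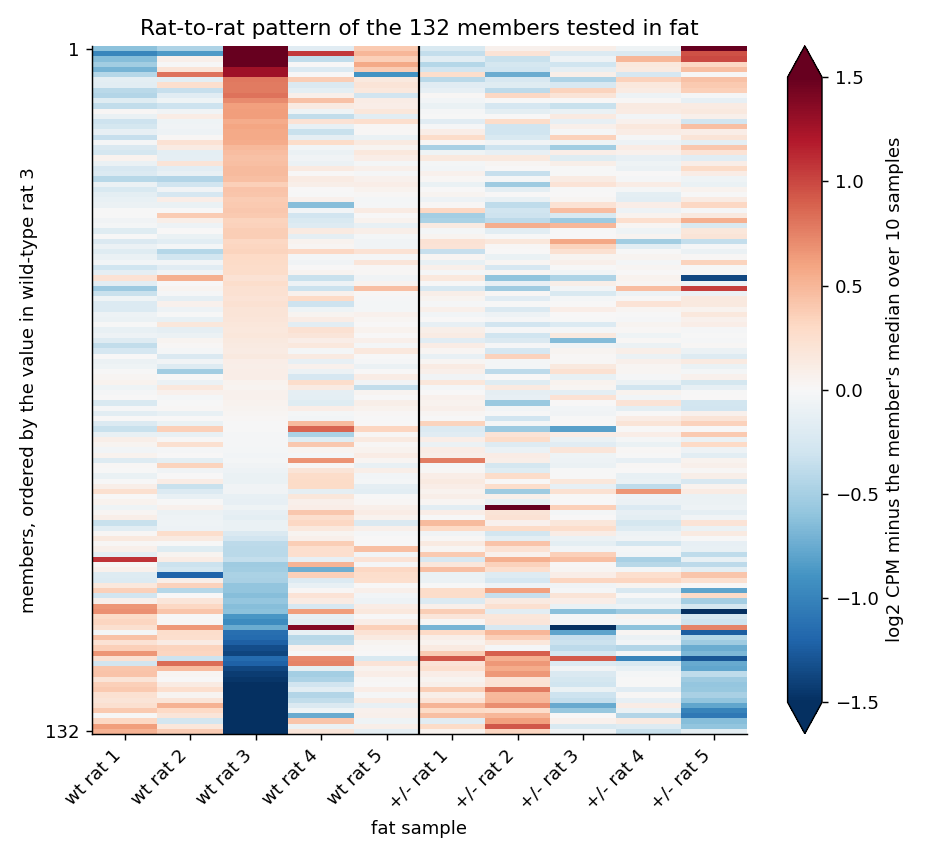
Log2 CPM of the 132 tested members (rows, ordered by wild-type rat 3) in the 10 fat samples (columns), minus each member's median, with red above and blue below. A block at the foot is low in wild-type rat 3, where 20 members were at least 2-fold below the median of the other 9 samples, and paler in the same direction in Tti2+/- rat 5.

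Within the genotypes the median SD of the members was 0.260 in wild-type and 0.210 in Tti2+/- fat. Without wild-type rat 3 the wild-type value was 0.184, below that of Tti2+/- fat. No test of the difference in spread was made. Another member with a wide range, ENSRNOT00000018447.5, the thirteenth by level and chosen after its values were seen, ran from 913 to 3876 TPM in wild-type and from 399 to 2615 TPM in Tti2+/- fat, with overlapping groups and a log2 fold change of -0.84 (SE 0.48, edgeR adjusted p = 0.781).

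Traces of the members in the other tissues were tested in the same way. In liver 78 members had enough counts and 0 were called by edgeR, beside 0.206% of all transcripts. At an unadjusted p under 0.05 there were 5 members, 4 of them with a lower estimate in Tti2+/- rats, beside 10.1% of all transcripts in either direction and 4.9% with a lower estimate. In hippocampus 74 were tested, 0 were called, beside 0.00483% of all transcripts, and 1 reached an unadjusted p under 0.05, beside 4.22%. The paper left out 1 outlier hippocampus sample, which it does not name, while all 10 samples were fitted here. With each of the 10 left out in turn, 0 members were called. By CPM no member had groups that did not overlap in hippocampus, beside 1.18% of all transcripts, and DESeq2 called 0 members and 0.0531% of all transcripts. For 3 members in liver every Tti2+/- sample lay below every wild-type sample by CPM, as did 1.28% of all transcripts. One of them was again ENSRNOT00000018447.5. In liver it had 7.54, 10.7, 15.7, 8.61 and 33.6 TPM in wild-type rats 1, 2, 4, 5 and 6 and 1.86, 6.44, 3.62, 5.37 and 3.33 TPM in Tti2+/- rats 1, 2, 4, 5 and 6. Its log2 fold change in liver was -1.84 (SE 0.45, edgeR adjusted p = 0.177), and DESeq2, with an adjusted p = 0.0137, called it, as it did 0.646% of all transcripts. In muscle the same transcript had a log2 fold change of -1.51 (edgeR adjusted p = 0.689), and in hippocampus one of 0.17 (edgeR adjusted p = 0.939). Since the tissues came largely from the same rats, these estimates are not independent of each other.

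In muscle 100 members were tested and 0 were called by edgeR, beside 0.00552% of all transcripts. At an unadjusted p under 0.05 there were 12 members, all with a lower estimate in Tti2+/- muscle, beside 6.84% of all transcripts in either direction and 3.16% with a lower estimate. The median log2 fold change was -0.25, beside -0.004 over all transcripts, and 78 of the 100 members were below 0, as were 51% of all transcripts. By CPM no member had groups that did not overlap, beside 1.3% of all transcripts. By TPM the groups of ENSRNOT00000015767.7 lay just apart, at 0.691 to 1.10 TPM in wild-type and 0.536 to 0.687 TPM in Tti2+/- muscle. DESeq2 called 1 member, ENSRNOT00000065759.3 (adjusted p = 0.0346), and 0.221% of all transcripts. In muscle this transcript lay at 0.453 to 2.96 TPM in wild-type and at 0.142 to 0.711 TPM in Tti2+/- rats, and at 510 to 673 TPM in fat.

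A pair of wild-type samples stood out in muscle. The members summed to 1289, 1218, 1173, 2303 and 2086 TPM in the muscle of wild-type rats 2 to 6. In Tti2+/- rats 2 to 6 the sums were 1298, 1608, 1130, 1199 and 1408 TPM. Wild-type rats 5 and 6 thus stood above the other 8 samples, and the rest of the groups overlapped. One of these samples was the highest for 78 of the 100 tested members, against 27.5% of all tested muscle transcripts, and both lay above the other 8 for 38, against 6.94%. For all 12 members with an unadjusted p under 0.05, wild-type rat 5 or 6 was the highest sample. All 12 had lower estimates in Tti2+/- muscle, which by itself favours a wild-type sample as the highest. The matching share over other transcripts was not computed.

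Without the pair, the median log2 fold change in muscle was 0.06 and 8 of 98 tested members reached an unadjusted p under 0.05, 2 of them with a lower estimate, in a fit chosen after the data were seen. In the same fit 7.94% of all transcripts reached that p, and 3.52% with a lower estimate. The pair was picked for its high values in these members, so leaving it out was bound to raise the estimates. That fit cannot show what made the pattern. The fat of wild-type rat 5, at 94520 TPM, was near the middle of its group, and wild-type rat 6 gave no fat sample. Even in the muscle of wild-type rat 5 the members reached only 2.46% of their mean sum in fat. Whether fat tissue lay in these muscle samples was not tested. In hippocampus the sums were 1068 ± 130 TPM (SD, n = 5) in wild-type and 1098 ± 185 TPM (SD, n = 5) in Tti2+/- rats, and in liver they were 386 ± 54.9 TPM (SD, n = 5) and 367 ± 50.4 TPM (SD, n = 5), so in both the difference was smaller than the spread between rats. The hippocampus of wild-type rat 2, the library with the highest total in the series at 32713126 counts, was the highest of the 10 for 41 of the 126 members above 0 there, although its summed level of 939 TPM was the second lowest.

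**Figure D5:**
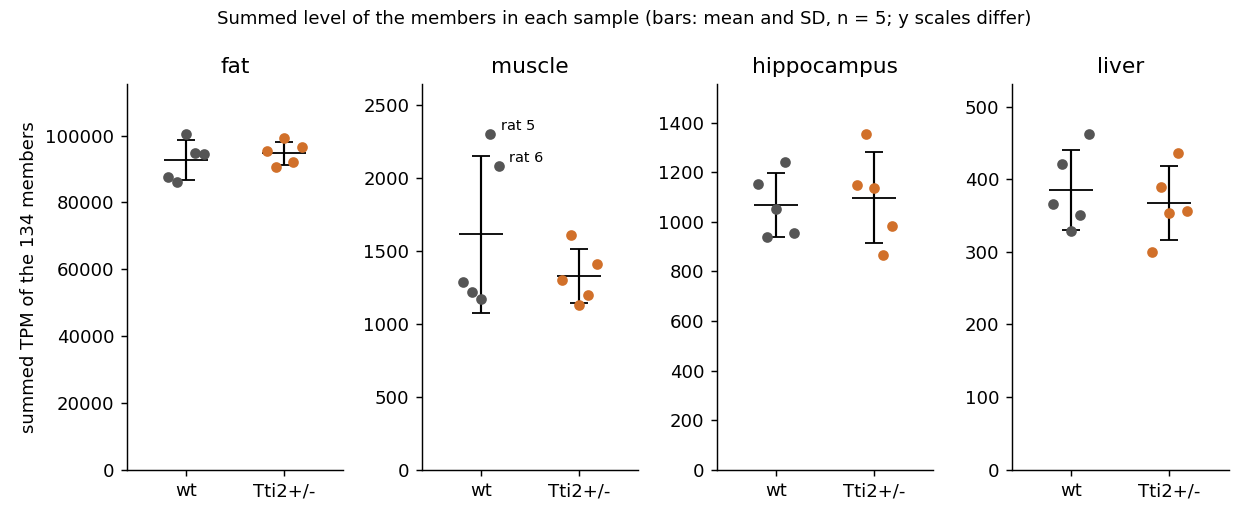
Summed TPM of the 134 members in every sample of the 4 tissues, wild-type (grey) and Tti2+/- (orange), with mean and SD (n = 5) as bars; each panel has its own scale from 0. In muscle, wild-type rats 5 and 6 lie at 2303 and 2086 TPM above the remaining samples at 1130 to 1608 TPM.

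Of the 134 members, 2 had too few counts to be tested in fat. ENSRNOT00000050726.4, of 171 bases, was listed at 0 in most fat samples and reached 568 TPM in 1 of them, and ENSRNOT00000089375.1, of 60 bases, averaged 3 estimated counts. Their high TPM rests on short lengths. They entered no test of single members and no SD of log2 CPM, but the summed TPM by genotype includes them.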

How the data were processed

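The authors made strand-specific libraries of polyadenylated RNA and quantified them with kallisto (0.46.0 in the submitters' processing notes) against Ensembl transcripts of build rn6, with sequence bias correction. The deposited tables hold a TPM and an estimated count (kallisto's expected count, often fractional) for each transcript; the authors' software scaled the TPM for length and library size, and reads shared by transcripts were divided between them. The members and lists were chosen with earlier results of these data known. A RefSeq gene table of assembly GRCr8 matched 0 of the transcript IDs, so no gene names or sequences are given. Levels, sums and membership were computed from TPM, and the counts of groups without overlap from CPM. Estimated counts were rounded, and transcripts with at least 5 counts in at least 47% of a tissue's samples were fitted per tissue, genotype as the only term, with edgeR 4.0.16 (TMM, quasi-likelihood test, R 4.3.3). CPM were TMM-normalized, and log2 CPM had a prior count of 1. Spread is the SD of log2 CPM within genotypes, pooled. Totals of 19176393 to 32713126 estimated counts per sample limit what members with few counts outside fat can show. Alternatives were median-of-ratios factors, DESeq2 1.42.0, limma 3.58.1 on ln(normalized count + 0.5), edgeR's newer small-count adjustment, other filters and thresholds, a replicate block and each sample left out; the models were tested on simulated data. The transcripts named are the 3 most abundant members, the 2 smallest p-values in each direction in fat, the extremes of spread, those at the edges of the rule and ENSRNOT00000032467.4; others are said to be chosen after their values were seen, or are single members that a count turns on.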

Additional observations from a re-analysis of the deposited data

Results flagged for a closer look

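In groups of 5 fat samples, 46 sets of values reported here were searched for a sample far from the others (the gap to its neighbour over 0.71 of the group's range), and 4 were found. Chance gives about 1 in 20 for sets not chosen for their values, and these transcripts were named partly for a wide spread or a small p, so no chance count applies to them. ENSRNOT00000077311.1 had 5541 TPM in Tti2+/- rat 2, and its gap was 0.917 of the range. ENSRNOT00000011402.4 had 74.6 TPM in wild-type rat 3, a gap of 0.954, and 18.5 TPM in Tti2+/- rat 5, a gap of 0.921. ENSRNOT00000080604.1 was low in wild-type rat 4 at 6.77 TPM, a gap of 0.815. Over all tested members, 24 of 264 sets held such a sample, where chance gives 13.2 for sets not chosen for their values, and the rule on mean levels can itself admit a transcript that 1 rat made high.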

How the results depend on the processing

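Membership was 319 transcripts at 10-fold and 62 at 50-fold, and 132 to 137 with 1 fat sample left out. In fat, 0 members were called under every alternative run; over the whole table DESeq2 called 20 transcripts, and leaving out samples in turn gave 0 to 1, the 1 without Tti2+/- rat 4. DESeq2 called 1 member in muscle and 1 in liver, and 0 were called in these tissues under the other alternatives. The summed fat level was 2.24% higher in Tti2+/- rats by TPM over 134 members and changed by -4.28% by CPM over the 132 tested. The number of members at an unadjusted p under 0.05 in fat, 2 in the fit reported, ranged from 1 to 8 with samples left out: 8 without wild-type rat 3 and 7 without Tti2+/- rat 5, 5 without wild-type or Tti2+/- rat 1, 4 without wild-type rats 4 or 5 or Tti2+/- rat 4, and 1 without wild-type rat 2 or Tti2+/- rat 3. In the same fits 4.95% to 8.93% of all transcripts reached that p. In muscle the 12 became 5 to 24: 24 without Tti2+/- rat 3 and 19 without wild-type rat 3, 5 without wild-type rat 5, 6 without Tti2+/- rat 5, and 7 without Tti2+/- rats 4 or 6, beside 5.03% to 9.64% of all transcripts. The muscle median ranged from -0.35 to -0.08 with 1 sample left out. The median SD in fat was 0.209 to 0.274 with 1 sample left out and 0.255 with members chosen on median TPM. Log2 fold changes turned without Tti2+/- rat 2 for ENSRNOT00000014701.7 (0.013; range with 1 sample left out -0.092 to 0.013), ENSRNOT00000077311.1 (-0.024; range -0.024 to 1.19) and ENSRNOT00000072490.3 (-0.075; range -0.075 to 0.26), and without wild-type rat 3 for ENSRNOT00000011402.4 (0.76; range -1.92 to 0.76). The cause of these shifts was not tested.

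Rat numbers count different animals in each genotype, and same-numbered fat samples did not deviate together (correlations of -0.07 to 0.08). With the rat number as a replicate block, 4 members in fat (3 lower) and 6 in muscle (6 lower) had an unadjusted p under 0.05, beside 5.43% and 5.33% of all transcripts, and no call changed. In liver, muscle and hippocampus most members had few counts, and 56, 34 and 60 of them were not tested.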
